A study of Mus musculus with 5 samples.

Results

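Transcripts of 7 genes that are used as markers of astrocytes were followed in sorted oligodendrocyte (OL) lineage cells of the mouse corpus callosum. The genes were Slc1a2, Slc1a3, Aqp4, Gja1, Gfap, Aldoc and Apoe, which are 7 of the 11733 genes in the expression matrix. The cells came from P60 Emx1::Cre mice carrying the Sox10::Cre-LoxP-GFP-STOP-TdTom reporter on a mixed CBA and C57BL/6 background. Tissue of 2 mice was pooled and sorted into TdTom+ cells, of dorsal origin, and GFP+ cells, of ventral origin, with 1 single-cell library each. The Sox10 part of the construct drives both reporters, so the sort takes Sox10 lineage cells and both libraries share the alleles, the age and the tissue. The 3 spinal cord samples of the series were not analysed here.

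Astrocytes clear glutamate from the extracellular space with the transporters encoded by Slc1a2 (GLT-1) and Slc1a3 (GLAST), and pass water through the channel of Aqp4. They are coupled to each other and to oligodendrocytes through connexins, of which Gja1 encodes connexin 43, and Gfap encodes their intermediate filament. Aldoc is the brain form of the glycolytic enzyme aldolase, and Apoe carries lipid in lipoproteins that astrocytes secrete. Oligodendrocyte precursor cells (OPC) are a separate dividing population that gives rise to committed precursors (COP), newly formed (NFOL) and myelin-forming (MFOL) oligodendrocytes and then mature ones (MOL).

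The TdTom+ library held 7129294 unique molecular identifiers (UMIs) in 1901 cells, and the GFP+ library 3584940 UMIs in 952 cells, with medians of 3340 and 3307 UMIs per cell. Levels are given as UMIs summed over a group of cells per 1000000 UMIs of those cells (CPM). With 1 library per origin there was no replicate and no test, and the intervals, at 95%, cover counting error only (exact Poisson for sums, Clopper-Pearson for shares of cells, and exact conditional Poisson for ratios). The labels are the 12 that the authors deposited with each cell. They came from clustering that could use these genes, so a difference between labels is a description. The libraries shared 1 cell barcode, which belonged to no cell with a Gja1 UMI or with at least 3 of the members other than Apoe. Per the RefSeq annotation of GRCm38.p6, the assembly also called mm10, Slc1a2 lies at chr2:102658239-102790784 and overlaps the models Gm13872 and LOC115489466, from which its reads may not be separable. The other members with a position used here overlapped no other model, with Slc1a3 at chr15:8634124-8710807, Gja1 at chr10:56377300-56390419, Gfap at chr11:102887336-102897200, Aldoc at chr11:78323073-78327781 and Apoe at chr7:19696244-19701310.

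The 7 genes did not share one distribution. Slc1a2, Slc1a3, Aqp4, Aldoc and Apoe had their highest level in OPC, Gja1 sat almost wholly in a few cells labelled MOL2b, and Gfap was scattered over the MFOL and MOL labels, mostly as single UMIs, with 0 UMIs in OPC. Summed over each library, Apoe was the most abundant of the 7 in UMIs, with 8783 in TdTom+ and 4783 in GFP+ cells. Slc1a3 had 878 and 422 UMIs, Slc1a2 343 and 185, and Aldoc 156 and 94. The rest were rare, with 65 and 25 UMIs of Gfap, 17 and 6 of Gja1, and 11 and 6 of Aqp4. Counts of different genes are not compared as levels, because only the 3′ end of each transcript was sequenced.

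**Figure D1:**
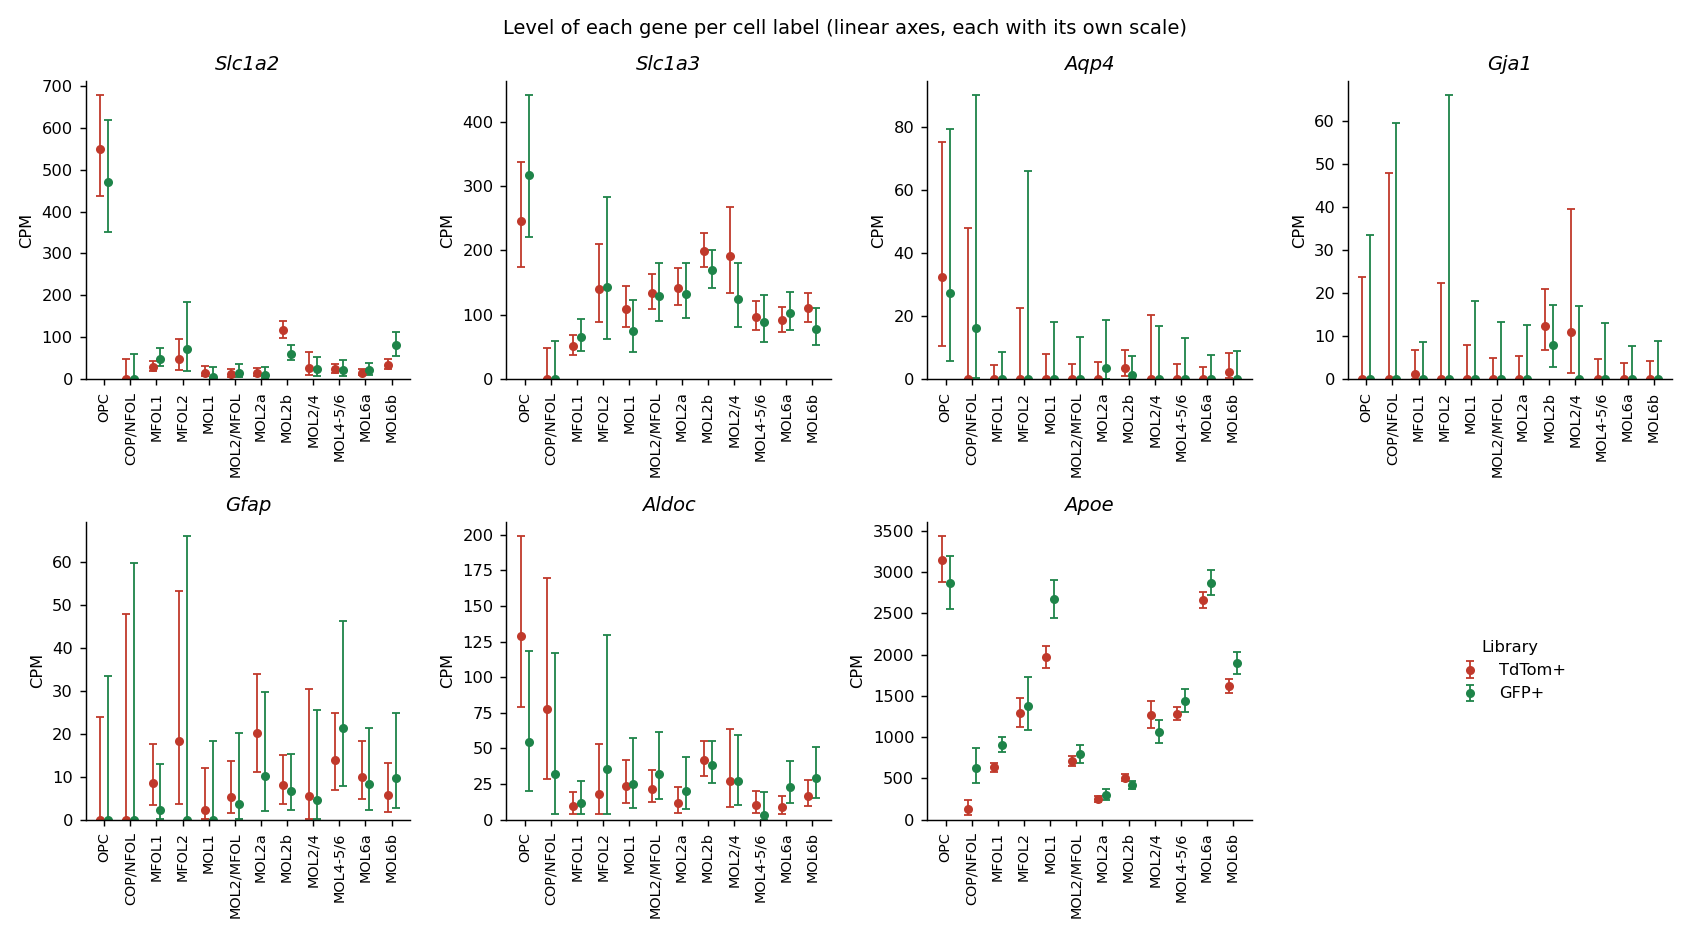
Level of each of the 7 genes in CPM (y axis, linear, a separate scale for each gene) per deposited label (x axis), with TdTom+ in red and GFP+ in green, and bars for exact 95% Poisson intervals. OPC stand highest for Slc1a2 in both libraries (548 and 471 CPM), while Gja1 is above 0 in MOL2b in both and at 0 in OPC, where its interval reaches above the MOL2b level.

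Slc1a2, the main glutamate transporter of astrocytes, had its highest level in OPC, which held 25.9% of its UMIs, while the more numerous MOL2b cells held 33.7%. The 48 TdTom+ OPC held 85 UMIs, or 548 CPM (438 to 678), and the 35 GFP+ OPC held 52 UMIs, or 471 CPM (352 to 618). OPC of both libraries were thus alike within counting error and above every other label. MOL2b came next with 94.4 CPM (81.0 to 109), and the remaining labels ranged from 0 to 54.4 CPM. That second place held for both libraries summed, while in the GFP+ library MOL6b (80.0 CPM) and MFOL2 (71.6 CPM) lay above MOL2b (60.7 CPM), and without the Gja1-positive cells MOL2b stood at 52.8 CPM. Of the 83 OPC, 63 had a UMI of Slc1a2 (75.9%), against 17.9% of MOL2b and 7.32% of cells of the other labels, at median depths of 2895, 4086 and 3229 UMIs. After every cell was thinned to 2400 UMIs the shares were 69.0% in OPC, 12.4% in MOL2b and 5.44% elsewhere, in the same order. The level in MFOL2, 54.4 CPM, rested on 1 TdTom+ cell with 7 of its 12 UMIs, which also held 55 UMIs of the precursor gene list, and was 23.5 CPM without it.

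Slc1a3, the second glutamate transporter, was broad. OPC held 38 UMIs in the TdTom+ library, or 245 CPM (173 to 336), and 35 in the GFP+ library, or 317 CPM (221 to 441). MOL2b followed with 199 CPM (173 to 226) and 169 CPM (141 to 201). Summed over both libraries, OPC at 275 CPM were 1.47-fold above MOL2b at 187 CPM, with intervals that did not overlap, although in the TdTom+ library alone they did. Below these the levels ran from MOL2/4 at 155 CPM to MFOL1 at 55.7 CPM, and over the whole order of labels 8 pairs of neighbours had overlapping intervals. The 19 COP/NFOL cells held 0 UMIs of Slc1a3 and 0 of Slc1a2 at a median of 8215 UMIs per cell. A count of 0 there allows up to 21.6 CPM by the 3-count limit (26.6 CPM by the exact interval), and limits cells with a UMI, not cells expressing the gene, to 15.8%, and the Slc1a3 level of every other label lay above that. For Slc1a2 the bound does not set these cells apart from all labels, since MOL1, at 12.0 CPM, and 3 others lay below it.

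Aqp4, the water channel, gave 17 UMIs in 12 cells. OPC held 5 UMIs in 3 TdTom+ cells and 3 UMIs in 2 GFP+ cells, which is 32.2 CPM (10.5 to 75.2) and 27.2 CPM (5.60 to 79.4). MOL2b held 5 UMIs in 3 cells, and COP/NFOL, MOL2a and MOL6b together the other 4. All 5 of the Aqp4-positive OPC also carried Slc1a2 and Slc1a3, and 3 of them Aldoc. Their precursor list summed to 13768 CPM and their myelin list to 1942 CPM, against 12454 and 3235 CPM in the OPC with fewer than 3 of the members. The median over the latter cells was 2108 CPM of myelin genes, and 1 of them reached 36806 CPM. All 3 Aqp4-positive MOL2b cells carried Gja1.

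Aldoc had 26 UMIs in 19 OPC, with 129 CPM (78.8 to 199) in TdTom+ and 54.3 CPM (19.9 to 118) in GFP+ OPC. In COP/NFOL it had 8 UMIs in 6 cells, or 57.7 CPM (24.9 to 114), and in MOL2b 40.3 CPM (31.8 to 50.5). The intervals of OPC and COP/NFOL overlapped. The lowest label was MOL4-5/6, at 8.37 CPM.

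Compared with all later cells without a Gja1 UMI, OPC had intervals above 0 for Aqp4, Slc1a2, Slc1a3, Aldoc and Apoe, with log2 ratios of 4.49 (3.26 to 5.23), 4.07 (3.77 to 4.36), 1.27 (0.91 to 1.61), 2.29 (1.65 to 2.87) and 1.32 (1.21 to 1.42), on a scale of CPM plus 1. OPC are so unlike the later cells that 36.6% of all 11652 genes with a UMI had such an interval, which is the background for these 5 of 7 members. OPC also carried many other genes of the astrocyte list. Of 40 such genes that are no member, 34 were in the matrix, and 26 of the 34 were higher in OPC and 2 lower, with a median log2 ratio of 2.46 against 0.57 over all genes. Among them were Fabp7, a fatty acid binding protein of radial glia and precursors, with 219 UMIs in OPC and 42 in the 2757 others, Gpr37l1 (633 against 10.9 CPM) and Sparcl1 (576 against 11.4 CPM). The glutamine synthetase gene Glul was lower in OPC (166 against 1712 CPM), as was Kcnj10, a potassium channel gene (215 against 374 CPM), and both are also expressed by oligodendrocytes. S1pr1, Sox9, Mlc1 and Gjb6 had 0 UMIs in OPC, which at 11.3 CPM for 3 counts does not exclude low levels.

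Gja1 had 23 UMIs in 13 of 2853 cells, 9 TdTom+ and 4 GFP+. MOL2b held 20 of them, 14 in 6 TdTom+ cells and 6 in 4 GFP+ cells, or 12.4 CPM (6.79 to 20.8) and 7.92 CPM (2.91 to 17.2). MOL2/4 held 2 UMIs, MFOL1 held 1, and all other labels, OPC among them, held 0. In OPC a 0 allows up to 11.3 CPM by the 3-count limit (13.9 CPM by the exact interval), so that a level like the 10.6 CPM of MOL2b was not detectable there. Gjb1, a connexin of myelinating oligodendrocytes, had 6004 UMIs over all cells, with 30.1 CPM in OPC and 574 CPM in later cells without Gja1. Gjb6, the other astrocyte connexin, had 4 UMIs in all, of which 0 were in OPC and 1 in the Gja1-positive MOL2b cells. Within the Gja1-positive MOL2b cells Gjb1 stood at 457 CPM, against 771 CPM in MOL2b cells without Gja1.

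The 13 Gja1-positive cells were not alike. In 6 of them, all labelled MOL2b, at least 3 of the 6 members other than Apoe were detected. The cell with the most, from the TdTom+ library, held 5 UMIs of Gja1, 26 of Slc1a2, 11 of Slc1a3, 14 of Aldoc, 2 of Aqp4 and 51 of Apoe among 9031 UMIs. A second TdTom+ cell held 3 of Gja1, 8 of Slc1a2, 5 of Slc1a3, 4 of Aldoc and 2 of Aqp4 among 4013, and the richest GFP+ cell 3, 5, 8, 3 and 1 of the same genes among 7440. None of the 13 held Gfap. These cells also held myelin transcripts at the level of oligodendrocytes: the 8 myelin genes summed to 30894 CPM in the first cell, 48094 CPM in the second and 92876 CPM in the third. The 425 MOL2b cells without Gja1 spanned 41897 to 95073 CPM, so that only the first fell below their range. The remaining 7 Gja1-positive cells had a single UMI of it, and 0 UMIs of Aqp4 and Aldoc.

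Against the 819 cells of the same 3 labels without Gja1, the 13 cells had 82 UMIs of Slc1a2 (1375 against 43.3 CPM, log2 ratio 4.96, 4.55 to 5.35), 45 of Slc1a3 (755 against 126 CPM, 2.57) and 24 of Aldoc (403 against 21.8 CPM, 4.14, 3.43 to 4.81). Aqp4 had 5 UMIs in them and 0 in the 819. Apoe was higher too, at 2197 against 613 CPM. The wider astrocyte list followed: 27 of its 34 genes had an interval above 0 and 1 below it, with a median log2 ratio of 4.56 against -0.21 over all genes, where 3.63% of all genes had an interval above 0. They included S1pr1, a sphingosine phosphate receptor (252 against 2.87 CPM), Gpr37l1 (252 against 2.58 CPM), Slc6a11, a GABA transporter (168 against 1.15 CPM), Mlc1, a membrane protein of astrocyte endfeet (117 against 1.15 CPM), and Sox9, a transcription factor of the astrocyte lineage (117 against 2.30 CPM). S100b, which oligodendrocytes also express, was lower (268 against 1034 CPM). Vim and Fabp7 had 0 UMIs in the 13 cells.

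The pattern did not rest on the cell with most Gja1 UMIs alone. Without it 25 of 34 genes still had an interval above 0 (2.6% of all genes), although Aldoc fell from 403 to 198 CPM. In the 7 cells with 1 or 2 members, Mfge8 and Cst3 of the 34 were higher, against 1.42% of all genes. In these 7 cells 15 of the 34 genes had 0 UMIs, where 3 counts are 111 CPM, so that many differences were not detectable. Slc1a2, with 6 UMIs in 3 cells, stood at 221 against 43.3 CPM (log2 ratio 2.33, 0.87 to 3.48), and Apoe at 1181 against 613 CPM (0.94, 0.39 to 1.45). The summed astrocyte list was 19003 CPM in the 6 cells and 6064 CPM in MOL2b cells without Gja1. By library, the 9 TdTom+ and 4 GFP+ Gja1-positive cells stood at 15671 and 6847 CPM. Of the 6 cells, 2 were GFP+.

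**Figure D2:**
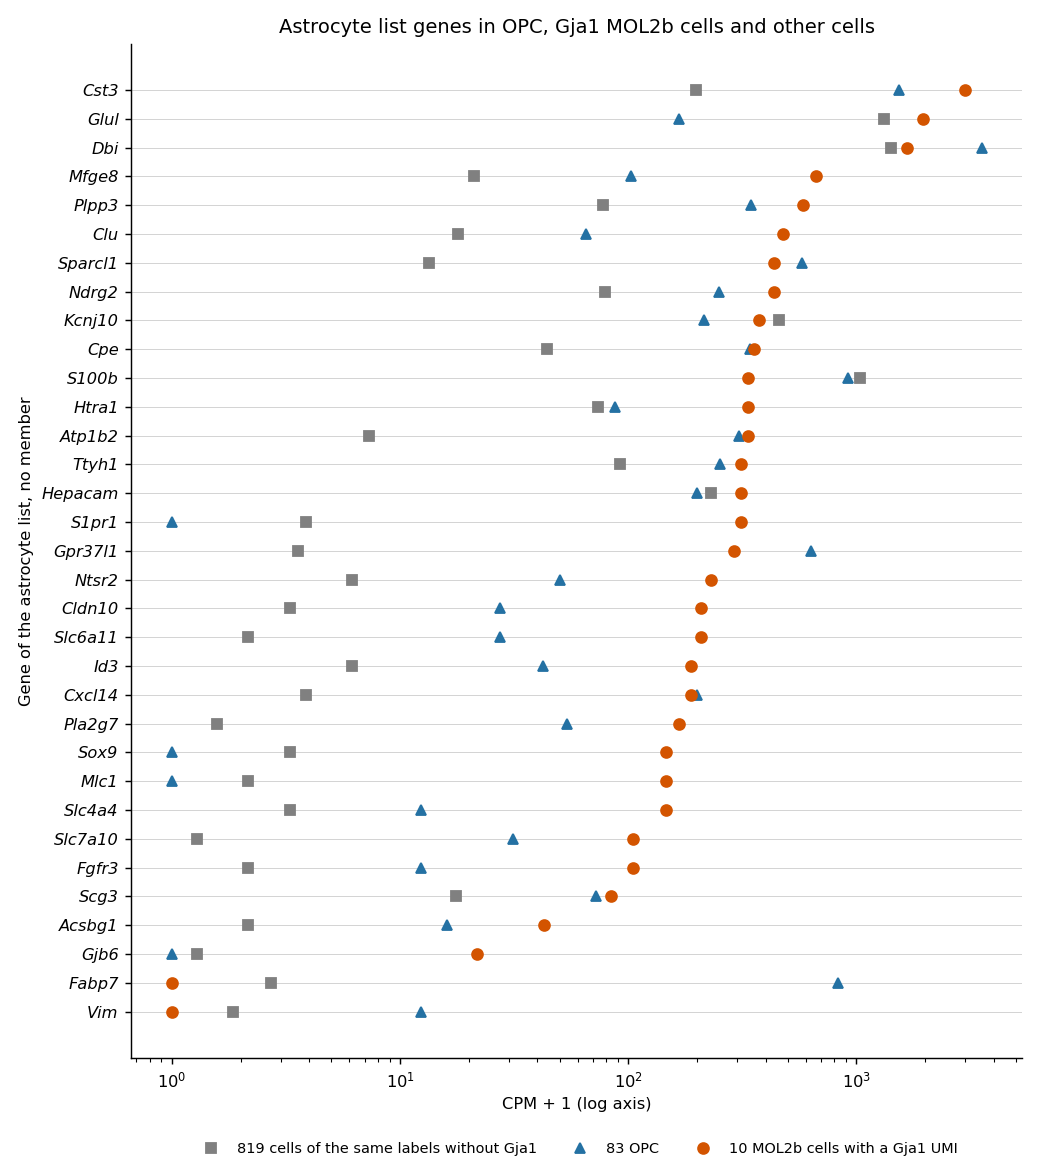
CPM + 1 on a log axis (x) of other genes of the astrocyte list (y), as orange circles for the 10 MOL2b cells with a Gja1 UMI, blue triangles for the 83 OPC and grey squares for the 819 cells of MOL2b, MOL2/4 and MFOL1 without Gja1. For most genes both the circles and the triangles lie right of the squares, but S1pr1, Sox9, Mlc1 and Gjb6 are at 0 in OPC and Fabp7 and Vim at 0 in the Gja1-positive cells.

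OPC and the Gja1-positive MOL2b cells thus carried overlapping but unequal sets. In the 10 MOL2b cells Slc1a2 stood at 1682 CPM against 516 in OPC, Slc1a3 at 914 against 275, Aldoc at 498 against 97.9 and Aqp4 at 104 against 30.1. The log2 ratios were 1.70 (1.29 to 2.11), 1.73 (1.16 to 2.29), 2.34 (1.48 to 3.19) and 1.75 (-0.17 to 3.50), so that the difference in Aqp4 was within counting error. These sums rested on a few of the 10 cells. Single TdTom+ cells held 26, 17 and 17 of the 81 UMIs of Slc1a2, and the first of them 14 of the 24 of Aldoc. The intervals do not cover that spread, and the contrast without those cells was not computed. Apoe was lower, at 2472 against 3028.5 CPM (-0.29, -0.58 to -0.01). Of the 34 other genes 17 had an interval above 0 and 4 below it, where 4.97% of all genes had an interval above 0. The median log2 ratio of the 34 was 1.18, or 0.89 with genes at 0 UMIs set to 3 counts, against -0.83 over all genes. Glul (1952 against 166 CPM) and Clu, a secreted apolipoprotein (478 against 64.0 CPM), were higher in the MOL2b cells. Mlc1, Sox9 and S1pr1 had 7, 7 and 15 UMIs there and 0 in OPC. Fabp7 (0 UMIs against 219), Gpr37l1 (291 against 633 CPM), S100b and Dbi were higher in OPC. The precursor list stood at 623 CPM in the 10 cells, and at 13259 CPM in the 11 OPC with at least 3 members and 12454 CPM in the 72 other OPC. MOL2b cells without Gja1 stood at 31.6 CPM. The 623 CPM came from Cspg5 (16 UMIs), Ptprz1 (7) and Serpine2 (7), each with a ratio over MOL2b cells without Gja1 whose interval lay above 0 (log2 ratios of 4.02, 4.51 and 5.10), while Pdgfra, C1ql1, Cspg4 and Vcan had 0 UMIs in those cells. Of the precursor list UMIs in the 10 cells, a TdTom+ cell held 16 and another 8, so the group value rested largely on them. The part of precursor transcripts in the other differences was not tested.

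Once cells with Gja1 or with at least 3 members were left out, 418 MOL2b cells remained, and they had higher levels of the transporters and Aldoc than the other 2298 MFOL and MOL cells. Slc1a2 was 47.0 against 22.8 CPM (log2 ratio 1.01, 0.64 to 1.38), Slc1a3 165 CPM and 1.61-fold that of the others (0.69, 0.49 to 0.88) and Aldoc 24.9 against 15.3 CPM (0.66, 0.16 to 1.14). Apoe was lower, at 411 against 1403 CPM. In this comparison 10.5% of all genes had an interval above 0. The wider astrocyte list went both ways, with 11 of 34 genes higher and 8 lower. With all cells included, MOL2b had 94.4 CPM of Slc1a2, 187 CPM of Slc1a3 and 40.3 CPM of Aldoc. Aqp4 was 0 in the 425 MOL2b cells without Gja1.

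Gfap gave 90 UMIs in 83 cells, of which 78 cells held a single UMI. The TdTom+ library had 65 UMIs in 60 cells (3.16% of cells, 2.42 to 4.04) and the GFP+ library 25 in 23 cells (2.42%, 1.54 to 3.60). The highest labels were MOL2a, with 17 UMIs in 14 of 230 cells (17.2 CPM, 10.0 to 27.5), and MOL4-5/6, with 17 UMIs in 16 of 350 cells (15.8 CPM, 9.21 to 25.3). No neighbouring labels differed beyond their intervals in the order of Gfap levels. One TdTom+ MOL2a cell held 4 UMIs. OPC and COP/NFOL had 0 UMIs, which allows up to 11.3 and 21.6 CPM, so a level like that of MOL6a (9.42 CPM) was not detectable there. Of the related filament genes, Vim had 17 UMIs in all cells, 3 of them in OPC, and Nes had 0. Of the 90 UMIs, 9 fell in the 39 cells with at least 3 members, which Gfap itself helped to choose. None fell in cells with Gja1 or Aqp4, which are too few for such a 0 to be informative.

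Apoe, detected in 80.5% of TdTom+ and 79.6% of GFP+ cells, followed the mature labels as much as OPC. OPC had 3147 CPM (2874 to 3439) in TdTom+ and 2862 CPM (2555 to 3195) in GFP+ cells. MOL6a had 2660 CPM (2560 to 2762) and 2866 CPM (2716 to 3022), so that in the GFP+ library OPC and MOL6a did not differ beyond their intervals. MOL1 had 1966 and 2668.5 CPM. At the other end MOL2a had 248 CPM (212 to 288) and 302 CPM (242 to 371), and MOL6a over MOL2a was 10.3-fold (log2 ratio 3.36, 3.18 to 3.55). After thinning, Apoe was found in 94.4% of OPC, 97.5% of MOL6a, 45.3% of MOL2b and 37.4% of MOL2a. In MOL2b relative to the other MFOL and MOL cells Apoe was 0.336-fold, where Slc1a2 was 3.73-fold and Slc1a3 1.80-fold. Without the Gja1-positive cells Slc1a2 was nearer, at 52.8 against 25.2 CPM. Among the other lipoprotein genes, Lrp1, an Apoe receptor gene, was higher in OPC (742 against 3.47 CPM), as was the lipid exporter gene Abca1 (128 against 26.6 CPM). For Abcg1 (166 against 137 CPM) the interval of the ratio included 0. The 1 MFOL2 cell with most microglial UMIs moved Apoe of that label little, from 1315 to 1335 CPM when left out.

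**Figure D3:**
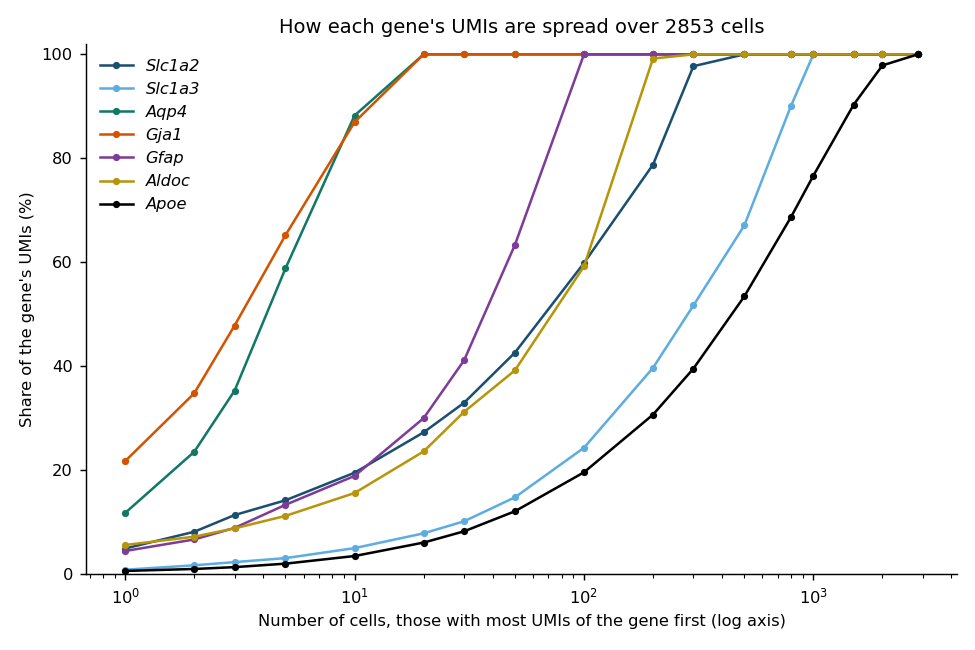
Share of each gene's UMIs (y axis, %) held by the cells with most of them (x axis, number of cells, log scale, points joined by lines). The 10 richest cells hold 87.0% of Gja1 but 3.48% of Apoe.

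UMIs of the rare members were concentrated accordingly. The 5 cells richest in a gene held 65.2% of the Gja1 and 58.8% of the Aqp4 UMIs. They held 14.2% of Slc1a2, 13.3% of Gfap and 11.2% of Aldoc, but 3.08% of Slc1a3 and 2.01% of Apoe. The cell with most UMIs was the same TdTom+ MOL2b cell for Slc1a2, Aldoc and Gja1, and for Slc1a3 it shared the highest count, 11, with another Gja1-positive MOL2b cell. For Apoe it was an OPC with 83 UMIs, 0 of Slc1a3, 3 of Slc1a2 and 4 of Aldoc.

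Detection together was counted over the 6 members other than Apoe, which most cells held. Of 2853 cells 1589 had none of the 6, 1029 had 1, 196 had 2, 30 had 3, 6 had 4 and 3 had 5. At least 3 were found in 23 TdTom+ cells (1.21%, 0.768 to 1.81) and 16 GFP+ cells (1.68%, 0.964 to 2.71), which did not differ beyond counting error. By label these 39 cells were 13 MOL2b, 11 OPC, 7 MOL6b, 3 MOL2a, 2 MOL6a, 2 MOL4-5/6 and 1 MOL1. As a share of the label OPC led with 13.3% (6.81 to 22.5), followed by MOL2b with 2.99% (1.60 to 5.06) and MOL6b with 1.63% (0.657 to 3.33). The depth of the 39 cells, with a median of 3624 UMIs, was above the 3326 of the others. After thinning, 19 of 2629 cells remained, among them 10 MOL2b and 6 OPC.

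**Figure D4:**
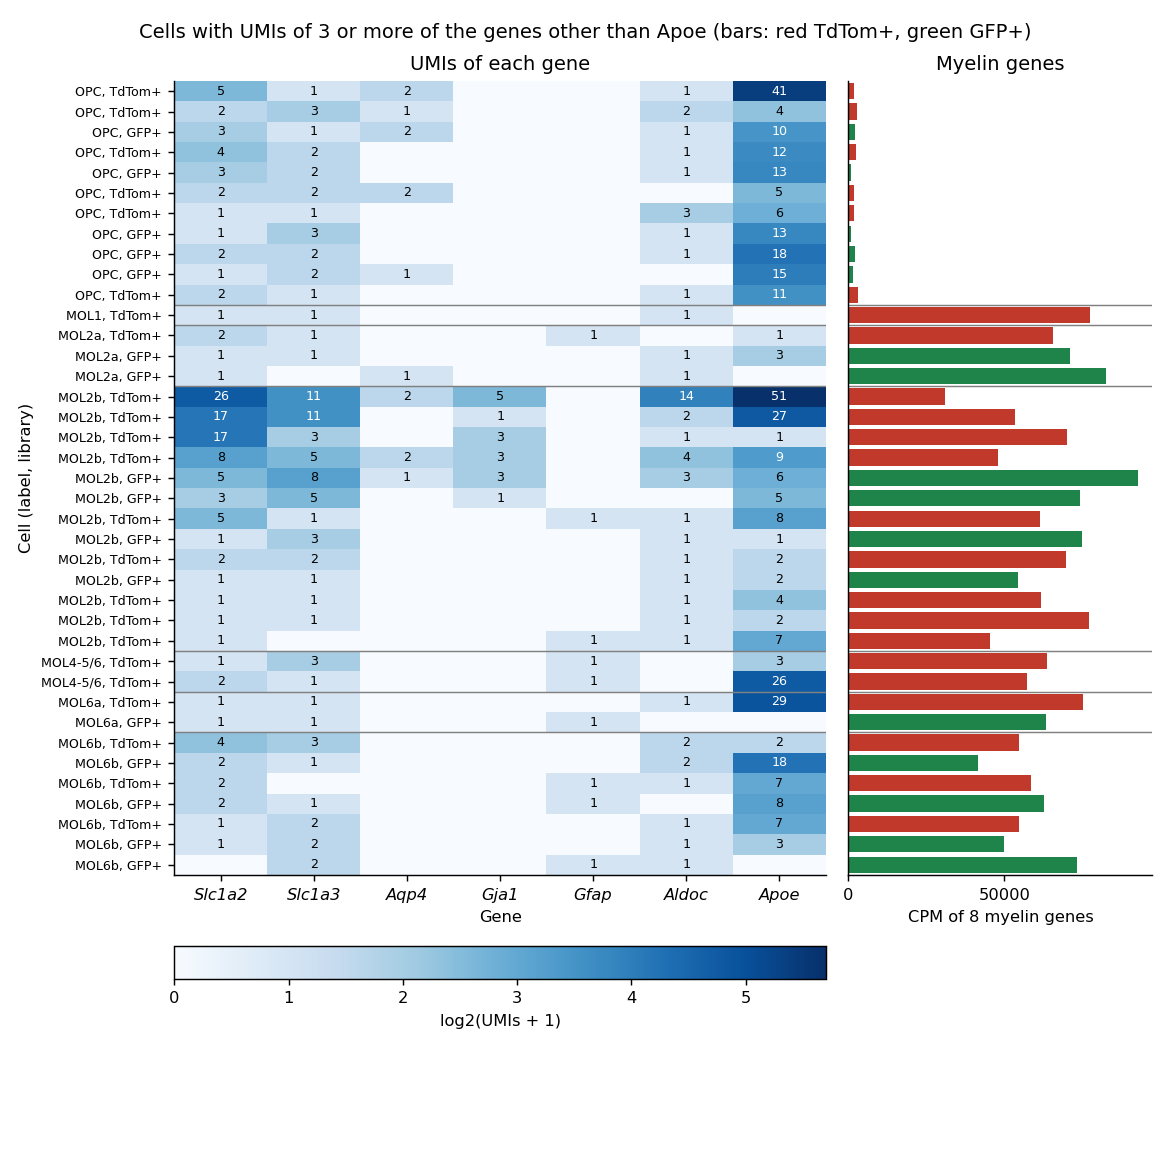
UMIs of each gene (left, number and colour, log2 of UMIs + 1) in the 39 cells with at least 3 of the 6 members, 1 row per cell sorted by label, beside the CPM of 8 myelin genes in the same cells (right, red TdTom+, green GFP+). The 11 OPC carry 847 to 3109 CPM of myelin genes and the 28 others 30894 to 92876 CPM, and Gja1 appears only in 6 of the MOL2b rows.

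For each of the 15 pairs of the 6 members the number of cells with both was set against the number that the product of their shares of cells gives. The ratio was above 1 for 13 pairs in both libraries together, and for 13 in each library alone, with a median of 1.89. Aqp4 and Gja1 met in 3 cells where the product gave 0.0547, Aqp4 and Aldoc in 7 against 0.850, Aqp4 and Slc1a2 in 9 against 1.31, Gja1 and Slc1a2 in 9 against 1.42, and Aldoc and Slc1a2 in 55 against 22.1. The most frequent pair, Slc1a2 and Slc1a3, was near the product, with 118 cells against 101. With products taken within each label and library the median was 1.52, and Slc1a2 with Slc1a3 stood at 0.990, Aldoc with Slc1a2 at 1.65, Gja1 with Slc1a2 at 4.40 and Aqp4 with Gja1 at 43.7. These ratios carry no interval, and the products take no account of the depth of single cells. Gfap met Slc1a3 in 30 cells (ratio 1.11), Slc1a2 in 13 (1.43) and Aldoc in 6 (1.02), and met Aqp4 and Gja1 in 0, where the products were 0.349 and 0.378. Pairs with Apoe lay between 0.931 and 1.14. After thinning to 2400 UMIs the median over the 15 pairs was 2.53.

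**Figure D5:**
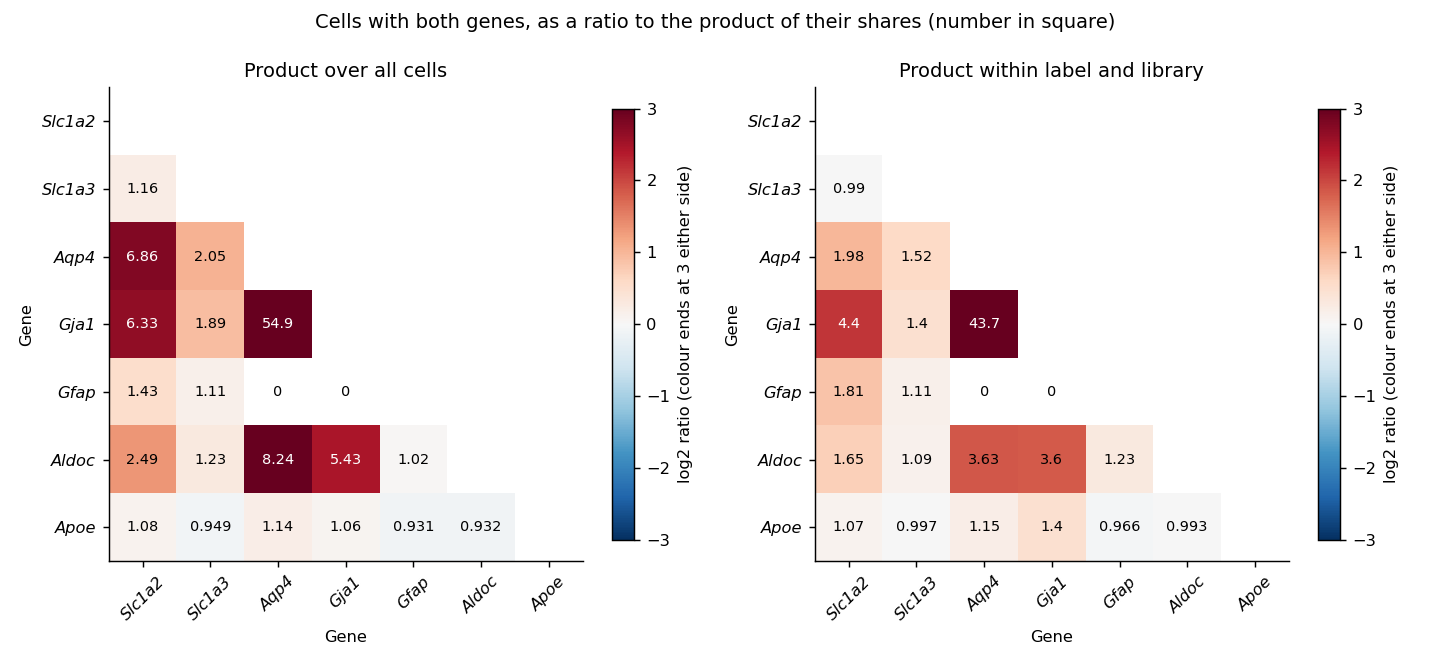
Cells with both genes of a pair divided by the number from the product of their shares of cells, as numbers in the squares and as colour (log2), with products over all cells (left) and within label and library (right). Pairs among Slc1a2, Aqp4, Gja1 and Aldoc are above 1 on both sides, Slc1a2 with Slc1a3 goes from 1.16 to 0.990, and Gfap with Aqp4 and with Gja1 is 0.

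The 39 cells were compared with the 2814 others in genes that did not choose them. Of the 34 other astrocyte genes 28 had an interval above 0 and 0 below it, with a median log2 ratio of 3.44 against 0.08 over all genes, where 9.35% of all genes had an interval above 0. The groups within the 39 differed. Against the other 72 OPC, the 11 OPC had 5 of 34 genes higher and 0 lower (1.68% of all genes were higher) and a median log2 ratio of 0.24 against -0.12. In these 11 cells 8 of the 34 genes had 0 UMIs, so that small differences were not detectable. The 22 cells that were neither OPC nor Gja1-positive had 9 of 34 higher (1.72% of all genes) and a median of 0.16 against -0.18. Among the 9 were Acsbg1, Clu, Cst3, S1pr1, Hepacam and Cpe, and most of the 9 had under 10 UMIs.

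The leading genes of the 39 cells, by fold in CPM among genes found in at least 50% of them, were Cst3 (cystatin C), Cpe, Arhgap31, Tspan7, Nrxn2, Olig2, Itm2c, Cadm2, Uqcrc1 and Smim11. Cst3 was 1527 CPM in the 39 and 263 CPM in the rest, with 1842 CPM in the 11 OPC against 1494 CPM in the other OPC, and 1438 CPM in the 28 cells of other labels against 236 CPM in the remaining cells of those labels. For Cpe the same pairs were 419 against 327 CPM and 203 against 37.8 CPM. Among the 28, the 22 cells without a Gja1 UMI had 524 against 235 CPM of Cst3 and 115 against 37.7 CPM of Cpe. Part of the lead of both genes thus lay in the Gja1-positive cells. Olig2, the lineage transcription factor, and Arhgap31 stood at 1535 and 1172 CPM in the 11 OPC against 1141 and 788 CPM in the other OPC. In the 28 they stood at 141 and 86.0 CPM against 177 and 66.5 CPM, so that most of their lead in the 39 cells came from the OPC among them.

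Transcripts of further cell types were counted in the same cells. The 6 microglial genes had 0 UMIs in all 39 cells, and the 5 endothelial genes 2 UMIs. The neuronal list had 46 UMIs in the 11 OPC (1284 CPM) and 988 CPM in the other OPC, with 1 UMI in the 28 other cells. The 1 ependymal gene in the matrix had 11 UMIs in the 28 cells, or 86.0 CPM, against 42.3 CPM in the remaining cells of those labels, and the neural stem cell list stood at 93.8 against 103 CPM. In the 13 Gja1-positive cells the ependymal gene had 7 UMIs, or 117 CPM, against 14.2 CPM in MOL2b cells without Gja1, and the neural stem cell list 16.8 against 244 CPM. That list was mostly Hopx, at 20.8 CPM in the 10 Gja1-positive MOL2b cells and 243 CPM in the other MOL2b cells (log2 ratio -3.48, -7.32 to -1.05). Hopx is also a marker of MOL2 cells, so these cells were low in a marker of their own label. The 6 Gja1-positive cells with several members had a median of 4602 UMIs and 1998 genes, and MOL2b cells without Gja1 a median of 4086 UMIs and 1706 genes. No doublet caller was run, and whether doublets or free RNA had a part in these cells was not tested.

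Summed over all cells, the log2 ratio of TdTom+ over GFP+ was -0.10 (-0.36 to 0.16) for Slc1a2, 0.06 (-0.10 to 0.23) for Slc1a3, -0.07 (-1.04 to 0.86) for Aqp4, 0.34 (-0.62 to 1.23) for Gja1, 0.34 (-0.27 to 0.97) for Gfap, -0.25 (-0.61 to 0.12) for Aldoc and -0.11 (-0.17 to -0.06) for Apoe. The interval of Apoe lay off 0, at 1232 against 1334 CPM, and those of the other members included 0. Without the 39 cells with at least 3 members the ratio was -0.41 (-0.70 to -0.11) for Slc1a2 and -0.42 (-0.83 to -0.01) for Aldoc, both below 0. Those cells were chosen by UMIs of the same members, so that these values are no independent check. The share of all genes was not computed for that setting. With the label composition of the libraries standardized, the ratio over all cells was 0.11 for Slc1a2 and -0.15 for Aldoc, without intervals. The widest gap in the share of cells with a UMI after thinning was that of Slc1a2, with 7.54% (6.35 to 8.88) of TdTom+ and 9.79% (7.91 to 12.0) of GFP+ cells, and the intervals overlapped. Averaging 50 CPM or more were 2958 genes, Slc1a3 and Apoe among them, and 16.5% of these had an interval off 0. The median log2 ratio of the 7 members was -0.07 and of those 2958 genes 0.01. For the rarer members Aqp4, Gja1 and Gfap the intervals are wide, and small differences were not detectable.

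Within labels, 8 of the 29 pairs of a member and a label that averaged 50 CPM or more had an interval off 0, 6 of them lower in TdTom+, where 6.91% of all such pairs did. Of the 8, 6 were Apoe. Apoe had up to 4050 UMIs in a label (MOL6a), where a log2 ratio of -0.11 lay off 0. The pairs behind the 6.91% were not matched to the members for depth. Apoe was lower in TdTom+ cells in MFOL1 (635 against 910 CPM, log2 ratio -0.52, -0.71 to -0.33), MOL1 (1966 against 2668.5 CPM, -0.44, -0.60 to -0.28), MOL6b (1621 against 1894 CPM, -0.22) and MOL6a (2660 against 2866 CPM, -0.11). In COP/NFOL (130 against 631 CPM) the difference rested on 1 GFP+ cell with 28 of the 39 UMIs, and without it the values were 130 and 210 CPM with a log2 ratio of -0.69 (-2.07 to 0.68). In MOL2b Apoe was higher in TdTom+ (505 against 422 CPM, 0.26, 0.06 to 0.46), and without the Gja1-positive cells it was 426 against 409 CPM (0.06, -0.16 to 0.27). Slc1a2 in MOL2b was likewise higher in TdTom+, with 132 against 46 UMIs (117 against 60.7 CPM, 0.94, 0.45 to 1.45), and without the Gja1-positive cells 53.8 against 51.3 CPM (0.07, -0.54 to 0.68). In MOL6b it was lower, with 30 against 33 UMIs (33.9 against 80.0 CPM, -1.21, -1.96 to -0.47), and without the cells with at least 3 members still 26.3 against 70.1 CPM (-1.38, -2.21 to -0.55).

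Likeness of profile was measured as Pearson r of log2(CPM + 1) over the 24 profiles of label and library, among 6029 genes averaging 20 CPM or more. These values are descriptions, since the profiles share labels and the small labels give noisy points. Slc1a3 was most like Dalrd3 (0.965), Tmem144 (0.958) and Ogfrl1 (0.957), and Apoe most like Adamts1 (0.894), Dock1 (0.779) and Pcsk1n (0.762). Slc1a2 was most like 9030624J02Rik (0.838), Cttnbp2 (0.836) and Ubxn2a (0.835), and Aldoc most like Thsd7a (0.822), Tspan7 (0.788) and Ddah2 (0.755). Aqp4, Gfap and Gja1 were under that mean and were not compared. Among the 4 members compared, Slc1a2 and Slc1a3 were the most alike, at 0.778.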

How the data were processed

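Sorted OL lineage cells of P60 corpus callosum were loaded at 3000 cells per library for 10x 3′ version 2 libraries. The authors aligned reads with STAR (version not given in the sources used here) and the submitters' processing notes name Cell Ranger 2.1.1 and mm10. Whether counting used strand is not given. The authors kept cells with 200 to 3000 genes and under 5% mitochondrial UMIs. The deposited matrix gives, as a signal, each gene's UMI count over a divisor particular to the cell. Whole UMI counts were recovered with the smallest value of each cell as 1 UMI, and 100% of values came within 0.01 of a whole number. Counts had been expected in the matrix, and the recovered counts were used for sums, shares and counting intervals. From the deposited table of cells the count of UMIs, the library and the labels were taken, and its 34 other columns of values were not used. Of the 11733 genes, 81 had 0 UMIs.

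UMIs were summed per label and library as CPM. Ratios carry a pseudocount of 1 CPM. Shares of cells were also computed after thinning to 2400 UMIs (random seed 1), which left out 150 TdTom+ and 74 GFP+ cells, and to 1200 UMIs. A gene is called higher or lower where the 95% interval of its log2 ratio excludes 0. A count of 0 is bounded by 3 counts. UMIs mark molecules, and intervals cover counting error only, not mice, sorts or preparations. The members, the lists and the rule for named genes were chosen with earlier results of these data known. Named genes are the 7 members, the 3 genes most like each member averaging 20 CPM or more over the profiles, the 10 leading genes of the cells with at least 3 members, and genes of the marker lists. Cells with a Gja1 UMI were singled out after their values were seen. No doublet caller was run. The TdTom+ over GFP+ ratio was tested on simulated data with 2955 genes, where 200 were changed by 1 on the log2 scale. Its direction came out right for 100% of those, and 96.0% of the intervals contained the simulated ratio. The simulated counts held only the counting error that the intervals assume, so this coverage was set in advance and checks the computation alone. Spread between cells and genes of low level, most of the members among them, were not part of the simulation. It therefore does not show how well the reported intervals hold. Aqp4 is reported without coordinates. Some genes of the lists count in the totals but are not reported here by name. Tools were edgeR 4.0.16 (normalization factors only) in R 4.3.3, and scipy 1.17.1, matplotlib 3.10.9, pandas 2.3.3 and numpy 2.4.6 in Python 3.11.15.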

Additional observations from a re-analysis of the deposited data

How the results depend on the processing

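No paired analysis was possible because each origin had a single library and so no replicate number. The share of TdTom+ and GFP+ cells with at least 3 of the 6 members (1.21% and 1.68%) moved to 7.57% and 9.56% with at least 2 members, to 0.368% and 0.210% with at least 4, to 6.21% and 7.56% with Apoe counted as a seventh member, to 0.685% and 0.797% after thinning to 2400 UMIs, and to 0.368% and 0.105% where a member needed 2 UMIs. Leaving out Slc1a2 gave 0.368% and 0.315%, Slc1a3 0.473% and 0.315%, and Aldoc 0.579% and 0.630%. It moved by less than its interval without Aqp4, Gfap or Gja1, with the gene limits recounted, without the 5% of cells with most UMIs, and with OPC left out, an alternative added after seeing the data. The number of members whose library interval excludes 0 was 3 in place of 1 without the cells with at least 3 members, which the members themselves chose. It was 2 with the gene limits recounted, where Aldoc was at -0.42 (-0.80 to -0.04) beside Apoe. The share of all genes was not computed for either setting, so these counts have no background. Of the astrocyte list genes, 28 of 34 were higher in all 39 cells, but 5 in the OPC among them and 2 in the Gja1-positive cells with 1 or 2 members, both splits being chosen after seeing the data. Without the 39 cells Aqp4 in OPC was 0 and Aldoc 61.0 CPM, and Slc1a2 in MOL2b 49.3 CPM. UMIs of these genes helped to choose the 39 cells, and every Aqp4-positive OPC was among them, so that the 0 follows from the choice. Of the 49 library ratios under 7 alternatives, 47 stayed within the interval of the reported value, and none reversed a called direction. Of the 60 levels in labels, 12 moved, among them those of Slc1a2, Slc1a3 and Aldoc in MOL2b without the Gja1-positive cells. The number of members highest in OPC, 5, was 4 in the GFP+ library alone, where Apoe was highest in MOL6a. It was also 4 without the 39 cells, where Aqp4 was highest in COP/NFOL on 1 UMI, every Aqp4-positive OPC having been left out. With all genes in place of those of at least 50 CPM, 9.78% had a library interval off 0. At this depth, genes with few UMIs in small labels could not be ordered.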
